A study of Danio rerio with 58 samples.

Results

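Endothelial cells of a vessel wall are held together by junction proteins and carry receptors on their surface, and 7 genes of this kind were followed in single cells of the zebrafish dorsal aorta. They were cdh5 (ENSDARG00000075549), cldn5a (ENSDARG00000043716), cldn5b (ENSDARG00000014059), esama (ENSDARG00000077039), clec14a (ENSDARG00000103533), tie1 (ENSDARG00000004105) and tek (ENSDARG00000028663). They were chosen by gene symbol, and all 7 were found among the 35117 genes of the count table. The cells came from 4 groups, namely 12 floor cells and 10 roof cells of embryos at 28 hours post fertilization (hpf), and 18 floor cells and 18 roof cells at 21 hpf. All embryos carried both Tg(flk1:eGFP) and Tg(flk1:NLS-Eos), in which the promoter of flk1, also called kdrl, drives a green reporter and a nuclear Eos protein that turns red on illumination. Cells with red Eos were picked by hand after photoconversion of the floor or the roof, so every group depends on flk1-driven Eos. No embryo was named in the labels. With no animals to compare, a group is 1 sample here, and differences are given as sizes without a test.

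VE-cadherin, the product of cdh5, joins endothelial cells at adherens junctions and binds catenins inside the cell. Claudin-5, encoded in zebrafish by cldn5a and cldn5b, seals tight junctions, and esama encodes an adhesion molecule of the immunoglobulin family that lies at the same contacts. In mouse and human, CLEC14A is a lectin-like protein of the endothelial surface that binds the matrix protein MMRN2. TEK, also called TIE2, is in these species the receptor of the angiopoietins, and TIE1 is its partner receptor. In vertebrates the floor of the dorsal aorta holds hemogenic endothelium, from which blood stem cells emerge by leaving the endothelial layer.

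Total counts per cell ranged from 4339995 to 8254178 in the floor and from 3630613 to 5574794 in the roof at 28 hpf, and from 216581 to 4227288 in the floor and from 129849 to 4693992 in the roof at 21 hpf. For sums and detection, 200000 reads were drawn at random from each cell (thinned reads), and the roof cell of 129849 counts was left out. The level of a gene in a group is the sum of these reads, scaled to 1000000 reads in all (counts per 1000000, CPM), while values of single cells are CPM of all their counts. Detection in a cell means 5 thinned reads or more. A summed level of 0 was treated as at most 3 reads, and a ratio against it is a bound.

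The labels call all cells endothelial, and the markers of that type bore this out in the roof but not in most floor cells. A reference of 25 endothelial genes, none of them among the 7, had a median share of 0.116% in floor cells at 28 hpf (0.0181% to 0.471%), against 2.04% in roof cells (1.44% to 2.69%). At 21 hpf the medians were 0.227% in the floor (0.00729% to 3.07%) and 2.17% in the roof (0.518% to 5.12%). At 28 hpf etv2 and egfl7 were at 0 in 11 of 12 floor cells, while fli1a had 121 to 1565 CPM over all 12. Erythroid genes passed 1% of the counts in 3 floor cells and 0 roof cells at 28 hpf and in 8 floor cells and 0 roof cells at 21 hpf, and muscle genes took 8.45% of floor cell 6 at 28 hpf. For the 7 genes, values without these cells are given beside the results that they moved most. The lists of related genes were not rerun without these cells.

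At 28 hpf all 7 genes were at least 2-fold lower in the floor than in the roof, where 35.6% of 11194 measured genes were that much lower. The median log2 ratio of the 7 was -9.10 or lower, with 5 of them at a bound, against 0.06 over all measured genes. At 21 hpf 6 of the 7 were at least 2-fold lower in the floor than in the roof, against 25.5% of 12955 genes, and the median log2 ratio was -1.63, against 0.15 over all genes. The exception was tek. Within the floor, all 7 were at least 2-fold lower at 28 hpf than at 21 hpf, where 42.0% of 12258 genes were lower, with a median log2 ratio of -7.05 or lower, again with 5 at a bound, against -0.55 over all genes. Within the roof, 1 of the 7, tek, was at least 2-fold higher at 28 hpf than at 21 hpf, against 22.5% of 11653 genes, and the other 6 stayed within 2-fold, with a median log2 ratio of 0.56 for the 7 and -0.34 over all genes. The 4 comparisons share their groups in pairs, so their ratios are not independent of each other.

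**Figure D1:**
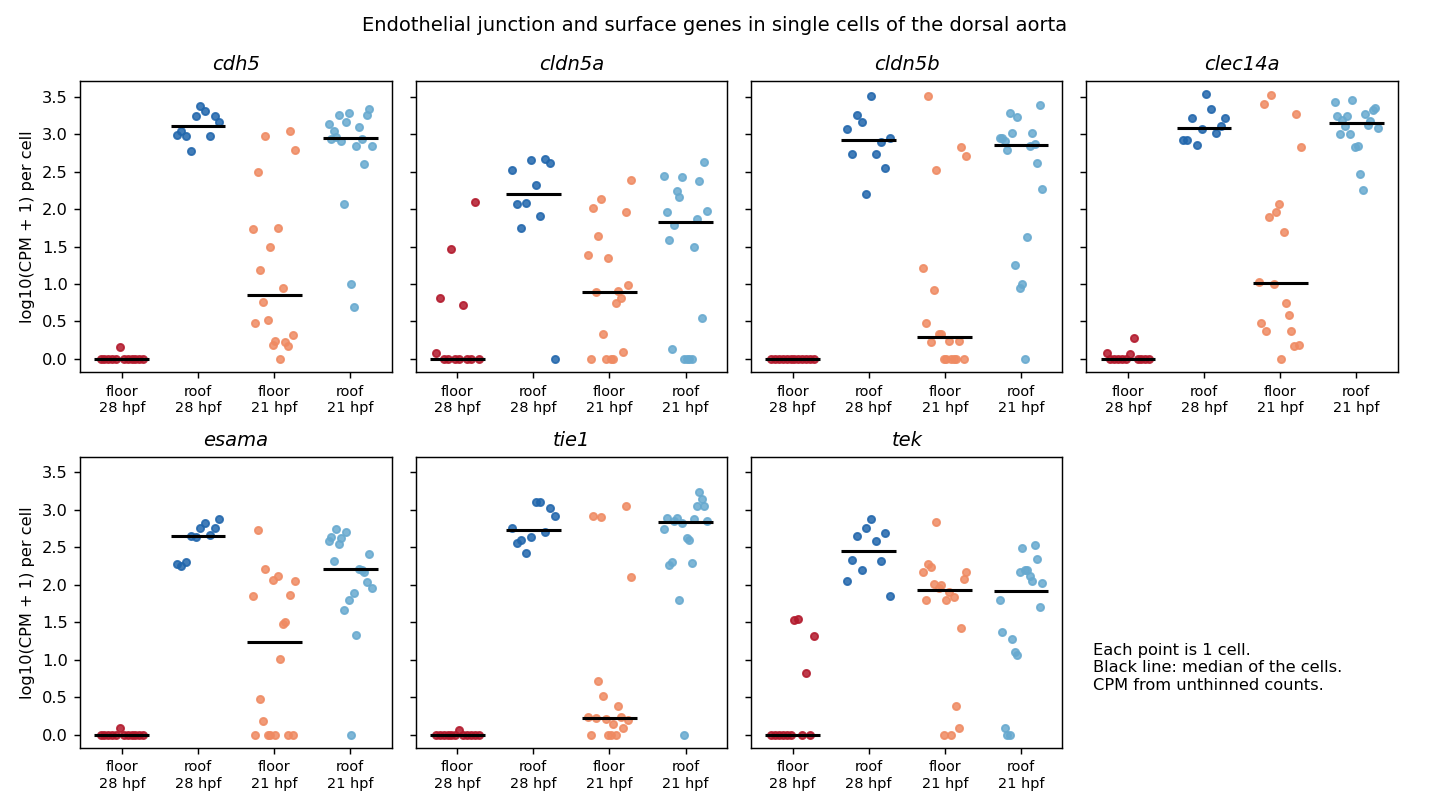
Level of each of the 7 genes in each cell, as log10(CPM + 1) from unthinned counts, in floor and roof cells at 28 hpf and at 21 hpf; points are cells and black lines are medians of cells. At 28 hpf the floor cells lie below every roof cell for 6 of the 7 genes. At 21 hpf 4 floor cells reach roof levels in all 7 genes. Most others lie near 0, except for tek and for some cells of esama, clec14a, cdh5 and cldn5a.

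At 28 hpf the floor cells lay below every roof cell in 6 of the 7 genes, all but cldn5a, where 1.38% of 11194 genes did so. At 21 hpf none of the 7 did, and 0 of all 12955 measured genes did. Between the stages none of the 7 had every cell of 28 hpf below every cell of 21 hpf, in the roof or the floor. Of all measured genes, 0.0515% of 11653 did so in the roof and 0 of 12258 in the floor.

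Among the junction genes, cdh5 had no floor cell near a roof cell at 28 hpf. It had 0, 0 and 0.424 CPM in floor cells (lowest, median and highest), against 604, 1291 and 2375 CPM in roof cells. At 21 hpf it had 0, 6.18 and 1116 CPM in floor cells, against 3.88, 890 and 2173 CPM in roof cells. The floor and roof thus overlapped at 21 hpf, with 2 of 18 floor cells above the roof median. The summed level was 0 CPM in the floor and 1402 CPM in the roof at 28 hpf, at least 1122-fold lower in the floor. At 21 hpf it was 175 CPM in the floor and 952 CPM in the roof, 5.43-fold lower in the floor (log2 ratio -2.44, 95% counting interval -2.57 to -2.32). Within the roof, cdh5 was 1.47-fold higher at 28 hpf than at 21 hpf, and within the floor it was at least 140-fold lower.

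The paired claudin-5 genes differed in how completely they were missing from the floor. In cldn5b, floor cells of 28 hpf had no read at all, against 156, 839 and 3286 CPM (lowest, median and highest) in roof cells, so the groups did not overlap. The summed level of cldn5b was 0 CPM in the floor and 1114 CPM in the roof, at least 891-fold lower in the floor, or at least 594-fold without the 4 floor cells that had over 1% of counts on erythroid or muscle genes. In cldn5a, floor cells of 28 hpf had 0, 0 and 122 CPM, against 0, 163 and 459 CPM in roof cells. The groups of cldn5a overlapped, because floor cell 11 reached 122 CPM, floor cell 5 had 27.9 CPM, and roof cell 10 had none. Floor cells 11 and 5 also had 9.41% and 2.50% of their counts on erythroid genes. The summed level of cldn5a was 12.5 CPM in the floor and 224 CPM in the roof, 17.9-fold lower in the floor (log2 ratio -4.16, -4.75 to -3.63). It was 70.2-fold lower without floor cell 11 and at least 119-fold lower without those 4 cells. It was 38.3-fold lower without the 6 cells taken as title part M12 and 9.89-fold lower when cells were thinned to 100000 reads.

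At 21 hpf the claudin-5 genes were both about as far below the roof. For cldn5b, floor cells had 0, 0.946 and 3219 CPM, against 0, 719 and 2472 CPM in roof cells. Its summed level of 275 CPM in the floor, against 793 CPM in the roof, was 2.88-fold lower (log2 ratio -1.53, -1.63 to -1.42), and floor cell 3 held 68.1% of the floor reads. Without that cell the floor was 8.53-fold lower. For cldn5a, floor cells had 0, 6.86 and 242 CPM, against 0, 66.6 and 427 CPM in roof cells. Its summed level of 41.7 CPM in the floor and 126 CPM in the roof differed 3.02-fold (log2 ratio -1.60, -1.87 to -1.32), or 4.76-fold without floor cell 18 and 4.62-fold from sums of unthinned counts. Both genes had cells at 0 in the roof as well as in the floor.

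Between the stages, cldn5a and cldn5b lay within 2-fold in the roof, 1.78-fold and 1.40-fold higher at 28 hpf. In the floor cldn5b was at least 220-fold lower at 28 hpf than at 21 hpf, a bound that came to at least 74.4-fold without floor cell 3 of 21 hpf. In the floor cldn5a was 3.33-fold lower at 28 hpf (log2 ratio -1.74, -2.35 to -1.16), and this value depended on the cells and the depth. It was 13.1-fold lower without floor cell 11 of 28 hpf, 7.14-fold without the M12 cells and at least 39.2-fold once cells rich in erythroid or muscle transcripts were dropped. It was 2.12-fold lower without floor cell 18 of 21 hpf, and 1.55-fold lower, inside the 2-fold limit, at 100000 reads.

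The adhesion gene esama followed cdh5 at 28 hpf. It had 0, 0 and 0.212 CPM in floor cells, against 180, 454 and 745 CPM in roof cells, with no overlap. Its summed level was 0 CPM in the floor and 445 CPM in the roof, at least 356-fold lower in the floor. At 21 hpf floor cells had 0, 18.95 and 544 CPM, against 0, 159 and 556 CPM in roof cells, so the highest cells of the groups were close. The summed level of 70.3 CPM in the floor and 230 CPM in the roof was 3.27-fold lower in the floor (log2 ratio -1.71, -1.92 to -1.50), and 5.43-fold lower without floor cell 3. Within the roof esama was 1.94-fold higher at 28 hpf than at 21 hpf, just inside the 2-fold limit. It was 1.24-fold higher without the 5 roof cells whose descriptions hold "dorsal3". Title parts of the roof are named here as in the descriptions, since the titles give only their number. In the roof at 21 hpf esama had 45.4 to 556 CPM in cells numbered 1 to 8 in their titles. Those numbered 9 to 18 had 0 to 257 CPM, a split noticed after the values were seen. Within the floor esama was at least 56.2-fold lower at 28 hpf, or at least 33.9-fold without floor cell 3 of 21 hpf.

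The lectin gene clec14a was detected in every thinned roof cell of both stages. At 28 hpf it had 0, 0 and 0.915 CPM in floor cells, against 723, 1222 and 3416 CPM in roof cells, again with no overlap. At 21 hpf it had 0, 9.39 and 3326 CPM in floor cells, against 180, 1406 and 2837 CPM in roof cells. Here 1 floor cell lay above all roof cells while most floor cells lay below the lowest of them. The summed level at 28 hpf was 0 CPM in the floor and 1434 CPM in the roof, at least 1147-fold lower in the floor, or at least 765-fold with the 4 erythroid- or muscle-rich floor cells dropped. At 21 hpf it was 479 CPM in the floor and 1483 CPM in the roof, 3.10-fold lower in the floor (log2 ratio -1.63, -1.71 to -1.55) and 4.66-fold lower without floor cell 6. In the roof the level at 28 hpf differed from that at 21 hpf by a log2 ratio of -0.05 (-0.12 to 0.02), an interval that covers counting error only and includes 0. In the floor clec14a was at least 383-fold lower at 28 hpf, or at least 254-fold without floor cell 6 of 21 hpf.

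Of the Tie receptor genes, tie1 had the pattern of the junction genes and tek did not. At 28 hpf tie1 had 0, 0 and 0.156 CPM in floor cells, against 265, 541 and 1276 CPM in roof cells, with no overlap. At 21 hpf it had 0, 0.682 and 1119 CPM in floor cells, against 0, 690 and 1713 CPM in roof cells. The roof cell of 21 hpf at 0 was the shallow one that thinning left out, and all other 17 roof cells had tie1 detected. The summed level was 0 CPM in the floor and 685 CPM in the roof at 28 hpf, at least 548-fold lower in the floor. At 21 hpf it was 166 CPM in the floor and 702 CPM in the roof, 4.24-fold lower in the floor (log2 ratio -2.08, -2.22 to -1.95) and 6.54-fold lower without floor cell 16. In the roof the log2 ratio of 28 to 21 hpf was -0.03 (-0.13 to 0.06), and tie1 was 1.76-fold lower at 28 hpf without the 5 dorsal3 cells. Without the roof cells of title part dorsal2 this log2 ratio was 0.36. In the floor tie1 was at least 132-fold lower at 28 hpf, or at least 85.9-fold without floor cell 16 of 21 hpf.

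The angiopoietin receptor gene tek was the 1 member whose summed levels in floor and roof lay within 2-fold at 21 hpf. It had 0, 84.0 and 696 CPM in floor cells of 21 hpf, against 0, 83.9 and 339 CPM in roof cells. Both medians were alike and the ranges overlapped. Roof cells numbered 1 to 8 in their titles had 0 to 62.0 CPM of tek. Those numbered 9 to 18 had 50.2 to 339 CPM, a split noticed after the values were seen. The roof median and the roof sum pool these unlike cells. Detection was 14 of 18 floor cells (77.8%, Clopper-Pearson 95% interval 52.4% to 93.6%) and 10 of 17 roof cells (58.8%, 32.9% to 81.6%). The summed level was 109 CPM in the floor and 101.5 CPM in the roof, a log2 ratio of 0.10 (-0.11 to 0.31). Its direction moved with the cells included. With the 8 floor cells above 1% erythroid counts left out, tek was 1.56-fold higher in the floor, and without floor cells 3, 6, 16 and 18, described below, it was 1.58-fold lower.

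At 28 hpf tek had 0, 0 and 33.5 CPM in floor cells, against 70.3, 298 and 755 CPM in roof cells, with no overlap. Detection was 2 of 12 floor cells and 10 of 10 roof cells. The summed level was 6.67 CPM in the floor and 337 CPM in the roof, 50.5-fold lower in the floor (log2 ratio -5.66, -6.47 to -4.95), and 82.3-fold lower without floor cell 7. It was 33.7-fold lower with the 4 erythroid- or muscle-rich floor cells dropped, and 32.4-fold lower with another random draw of reads. All thinned tek reads of the floor at 28 hpf came from cells 7, 8 and 12, all counted in title part M12. Without that part tek was at least 135-fold lower. Cell 12 bears D12 in its title and M12 in its description, and was taken as part M12.

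Between the stages tek had ratios of opposite sign in floor and roof, a difference that was not tested. In the floor it was 16.3-fold lower at 28 hpf than at 21 hpf (log2 ratio -4.03, -4.85 to -3.31), or 26.6-fold lower without floor cell 7 of 28 hpf and at least 43.6-fold lower without the M12 cells. It was 9.64-fold lower without floor cells 3, 6, 16 and 18 of 21 hpf, 9.90-fold with another random draw and 9.48-fold from unthinned sums. In the roof it was 3.32-fold higher at 28 hpf (log2 ratio 1.73, 1.54 to 1.92), and 5.32-fold higher when the unthinned counts were summed. Leaving out any 1 roof cell gave 2.81-fold to 3.90-fold. Single roof cells had 70.3 to 755 CPM at 28 hpf, against 50.2 to 339 CPM in the roof cells of 21 hpf numbered 9 to 18 in their titles and 0 to 62.0 CPM in those numbered 1 to 8, a split noticed after the values were seen.

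**Figure D2:**
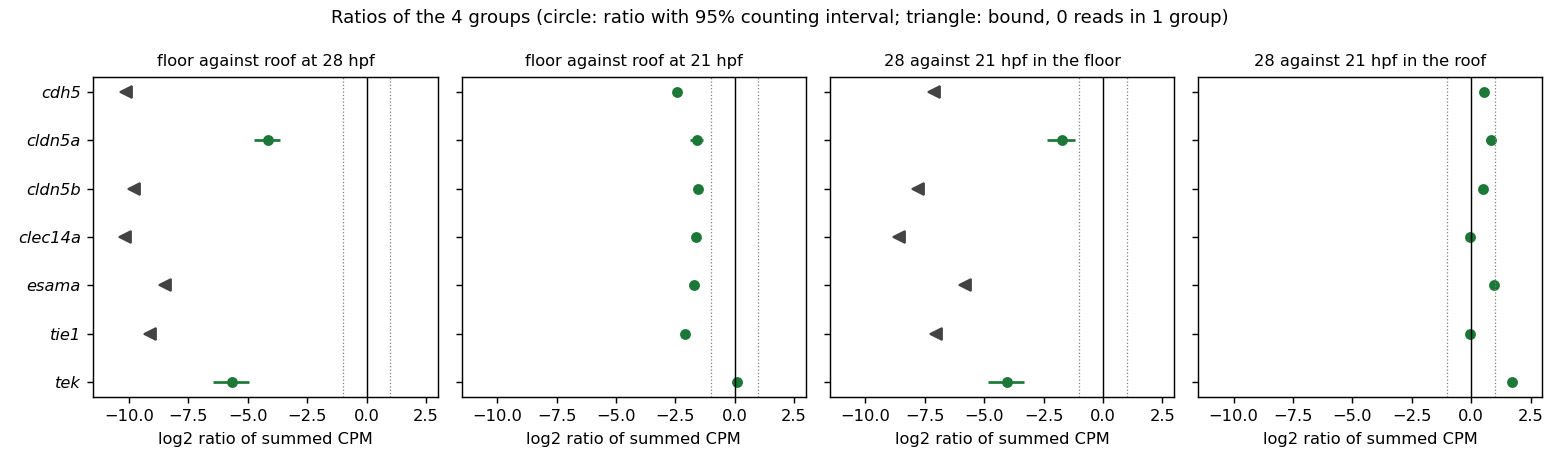
Log2 ratio of summed CPM for each gene in the 4 comparisons, with the 28 hpf or floor group on top of the ratio as each panel names it; circles carry 95% counting intervals, triangles are bounds with 0 reads in 1 group, and dotted lines mark 2-fold. The bounds at 28 hpf run beyond a log2 ratio of -8, and tek lies at 0.10 at 21 hpf and at 1.73 between the roof stages.

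The number of the 7 genes detected in a cell divided the groups at 28 hpf. Of 12 floor cells, 8 had none of the genes and 4 had 1, either tek or cldn5a, while 9 of 10 roof cells had all 7 and 1 had 6. For cdh5, cldn5b, clec14a, esama and tie1 the count was 0 of 12 floor cells, which allows a share of up to 25% of cells with 5 or more reads at this depth by 3 divided by 12, and up to 26.5% by the Clopper-Pearson interval. From unthinned counts clec14a reached 5 reads in 1 floor cell of 28 hpf, and the other 4 of these genes in none. By the same counts tek and cldn5a each reached 5 reads in 4 of 12 floor cells, against 2 of 12 thinned. The floor median was then 1 gene a cell, and floor cell 8 had 3. At 21 hpf the floor ranged from 0 to 7 genes a cell with a median of 2, and the roof from 3 to 7 with a median of 6. Unthinned counts gave medians of 3 in the floor and 7 in the roof at 21 hpf.

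The floor cells of 21 hpf fell on both sides. Cells 3, 6, 16 and 18 had all 7 genes, and the other 14 cells had 4 or fewer by thinned reads. The gap was narrower in unthinned counts, where cells 1 and 5 each reached 5 reads in 6 genes. The same 4 cells were the floor cells whose share on the 25 other endothelial genes, 0.987% to 3.07%, reached that of the lowest roof cell. Their erythroid share was 0.00560% to 0.0146%, against 0.0573% to 9.14% in the other 14. They held 99.8% of the tie1 reads of the floor, 99.6% of cldn5b, 95.1% of clec14a, 94.1% of cdh5, 88.7% of cldn5a and 73.1% of esama, but 54.1% of tek. As the 4 cells were set apart by detection of all 7 genes, high shares of the reads follow from that choice.

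Without these 4 cells the floor of 21 hpf moved further from the roof in the 6 genes that had been lower. It was 72.0-fold lower in cdh5, 20.7-fold in cldn5a, 9.47-fold in esama and 49.4-fold in clec14a. For cldn5b 4 reads were left in the 14 floor cells, against 2696 in the roof, and for tie1 1 read was left, against 2386. With the 8 floor cells above 1% erythroid counts left out, the differences shrank, and cldn5a, cldn5b and clec14a came inside 2-fold, at 1.71-fold, 1.60-fold and 1.74-fold lower, while cdh5 was 3.10-fold, esama 2.03-fold and tie1 2.36-fold lower. Between the floor stages, leaving out the same 4 cells of 21 hpf brought cdh5 to at least 10.6-fold, esama to at least 19.4-fold and clec14a to at least 24-fold lower at 28 hpf. There cldn5a turned to 2.06-fold higher at 28 hpf, on 30 reads at 28 hpf and 17 at 21 hpf. For cldn5b and tie1 too few reads were left at 21 hpf for a ratio past 2-fold. The lower floor levels at 21 hpf behind these values also follow from the choice of cells. The size of the floor-to-roof ratio at 21 hpf therefore moved with which floor cells were summed, and the part of erythroid RNA or cells in it was not tested.

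**Figure D3:**
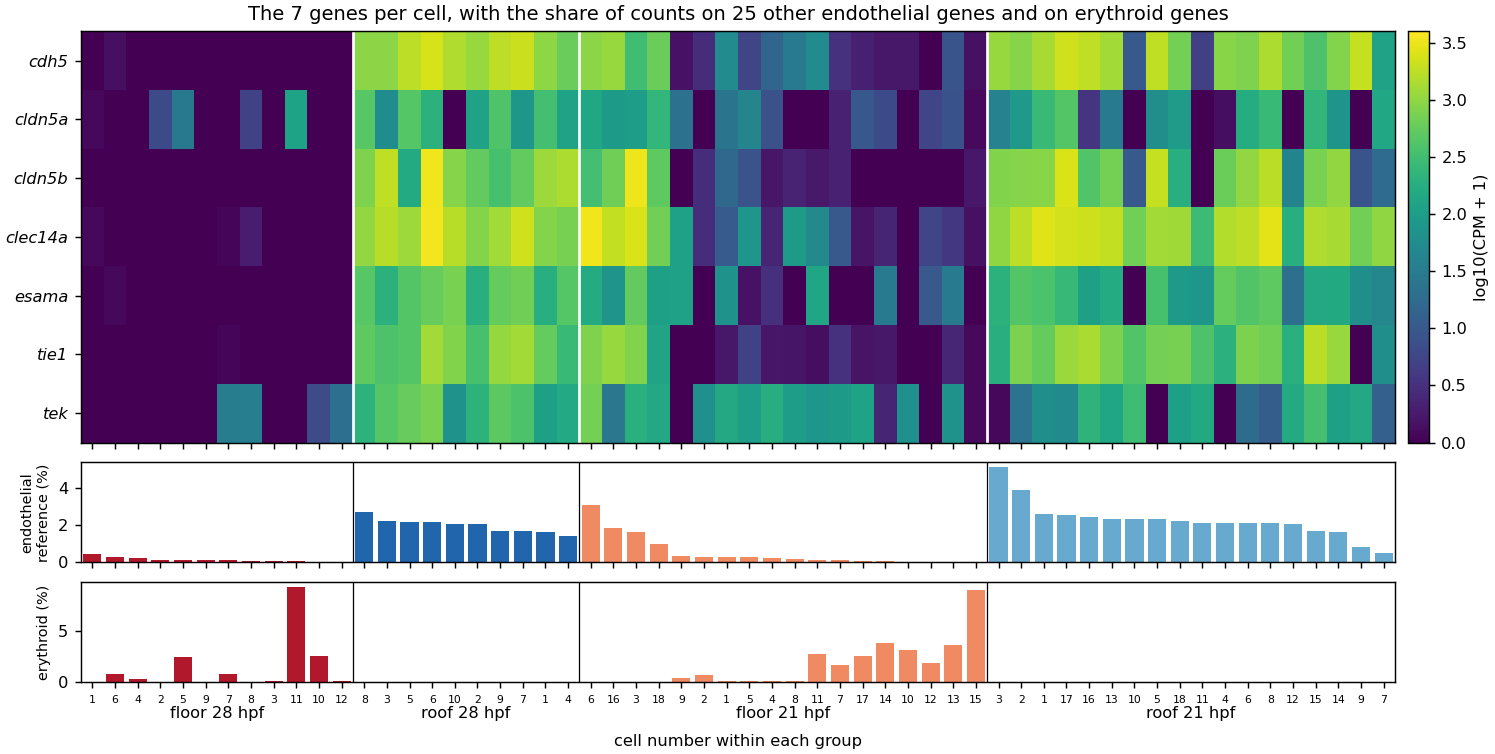
Level of the 7 genes in each of the 58 cells, as log10(CPM + 1) in colour, above the percent of each cell's counts on 25 other endothelial genes and on erythroid genes; cells are sorted by the endothelial share within floor 28 hpf, roof 28 hpf, floor 21 hpf and roof 21 hpf. Floor cells 6, 16, 3 and 18 of 21 hpf are bright in all 7 rows with erythroid bars near 0, and tek stays visible in many floor cells where the other rows are dark.

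In the floor at 21 hpf tek was found without tie1. Of 18 floor cells 4 had both receptor genes, 10 had tek alone, 4 had neither and 0 had tie1 alone. The 10 cells with tek alone had 62.2, 94.4 and 172 CPM of tek (lowest, median and highest) and 0, 0.630 and 4.16 CPM of tie1. Their tek levels lay within the range of the 4 cells with all 7 genes, 25.4 to 696 CPM. Their tie1 levels lay below the 126 to 1119 CPM of those cells, which follows from picking both sets by detection of these genes. Their cdh5 reached at most 54.2 CPM, their clec14a 91.1 CPM and their esama 131 CPM. Erythroid genes took 0.0573% to 3.65% of their counts and passed 1% in 5 of the 10. The 10 genes of the hemogenic list took a median of 0.275% of their counts. This median was 0.0577% in the 4 cells with all 7 genes and 0.135% in the 4 cells with neither receptor gene. Myeloid genes took 0.0771% to 0.354% of the counts of the 10 cells. They took at most 0.0120% in the 4 cells with all 7 genes and 0.00055% to 0.205% in the 4 with neither receptor gene. Within the hemogenic list myb had a median of 299 CPM over all 18 floor cells and runx1 was at 0 in 11 of them.

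Among thinned roof cells of 21 hpf the opposite combination was found. Of 17 such cells 10 had both receptor genes and 7 had tie1 alone, while 0 had tek alone. This count depended on depth. From unthinned counts tek reached 5 reads in 15 of 18 roof cells. Roof cell 9, which thinning left out, had 146 CPM of tek and 0 CPM of tie1. At 28 hpf all 10 roof cells had both, and of 12 floor cells 2 had tek alone and 10 had neither. Unthinned, tek reached 5 reads in 4 of these 12 floor cells and tie1 in 0. Shares by thinned reads leave out roof cell 9 of 21 hpf. By this measure 4 of 14 tek-positive floor cells and 10 of 10 tek-positive roof cells of 21 hpf also had tie1.

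**Figure D4:**
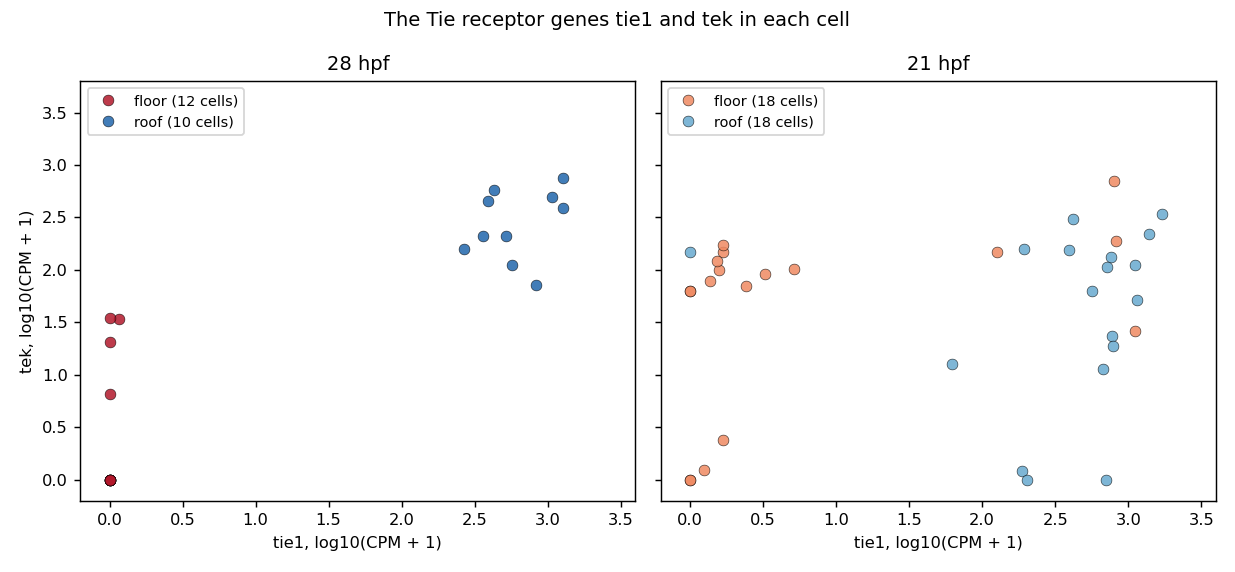
tie1 (horizontal) against tek (vertical) in each floor and roof cell, as log10(CPM + 1), at 28 hpf on the left and 21 hpf on the right. In the floor at 21 hpf 10 cells lie high on tek with tie1 near 0, while 7 roof cells of 21 hpf lie high on tie1 with tek under 5 thinned reads.

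Within the roof the genes varied from cell to cell and were not all missing from the same cells. At 21 hpf, of 17 cells, cldn5a was below 5 reads in 6, cldn5b in 3, cdh5 and esama in 2 each, and clec14a and tie1 in none. Cells 10 and 11 lacked cdh5, cldn5a and cldn5b together. The 7 cells with tek under 5 thinned reads, numbered 2 to 8, had cdh5, clec14a, esama and tie1 in every case. At 28 hpf the 1 gap was cldn5a in cell 10.

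Across all 57 thinned cells, Spearman's rho between pairs of the 7 genes had a median of 0.72 over 21 pairs (0.37 to 0.90). Those cells share 4 groups whose levels differ, and the same reads set the total of each cell. Within the 27 roof cells the median was 0.32 (-0.27 to 0.66), within the 10 of 28 hpf it was 0.17, with 14 of 21 pairs above 0, and within the 17 of 21 hpf it was 0.44, with 16 of 21 above 0. Among the 17 roof cells of 21 hpf, rho was 0.76 between cdh5 and cldn5b and 0.72 between cdh5 and clec14a. It was -0.70 between esama and tek. Levels of esama and tek in these cells also leaned opposite ways with the number in the cell title, as described below. Among the 10 roof cells of 28 hpf, rho was 0.71 between cdh5 and clec14a and 0.78 between cdh5 and tie1, while cdh5 and cldn5b had -0.32. These pairs were picked from the 21 after their values were seen, and no difference between the stages was tested.

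The genes whose reads ranked most like the mean of the 7 over all 57 cells were sought among 7203 genes. They were krt18, a keratin, with rho of 0.91, then colec12 at 0.89, tmem108 at 0.88, ENSDARG00000046054, csrp2, si:dkeyp-97a10.2, si:ch211-156j16.1, krt8, calua and rhoca, the last at 0.85. Each gene also had its own nearest genes over these cells. For cldn5b they were mcamb, an endothelial adhesion molecule gene, then ramp2 and myct1a, and for tie1 they were efnb2b, csrp2 and rasip1. For cdh5 they were tmem108, ednraa and colec12, for esama tmem108, colec12 and cd81a, for clec14a calua, csrp2 and sptbn1, and for cldn5a efna1a, nrp1a and hoxa3a. The nearest gene to tek was rin3, at 0.72, followed by her15.1 and ENSDARG00000054560. Over the 27 roof cells alone, among 5063 genes, the mean of the 7 ranked most like si:ch211-263k4.2 at 0.77 and ccdc80 at 0.74, followed by si:ch211-140m22.7, lamp2, itm2ba, si:ch211-156j16.1, ENSDARG00000046054, hhip, eif4e3 and si:ch73-334d15.2. For single genes the nearest over the roof cells were eif4e3, nrp1b and rasip1 for tie1, mcamb, rftn2 and ackr3b for cldn5b, and ehmt1b, agrn and lamb1b for esama. They were vangl2, ap2m1b and lamc1 for cdh5, perp, ugt1b1 and gpat3 for cldn5a, atp6v0b, si:ch73-334d15.1 and sptbn1 for clec14a, and rpl4, anxa11b and eef1a1l2 for tek. These roof cells span both stages, so a gene that differs between stages can rank with another that does.

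**Figure D5:**
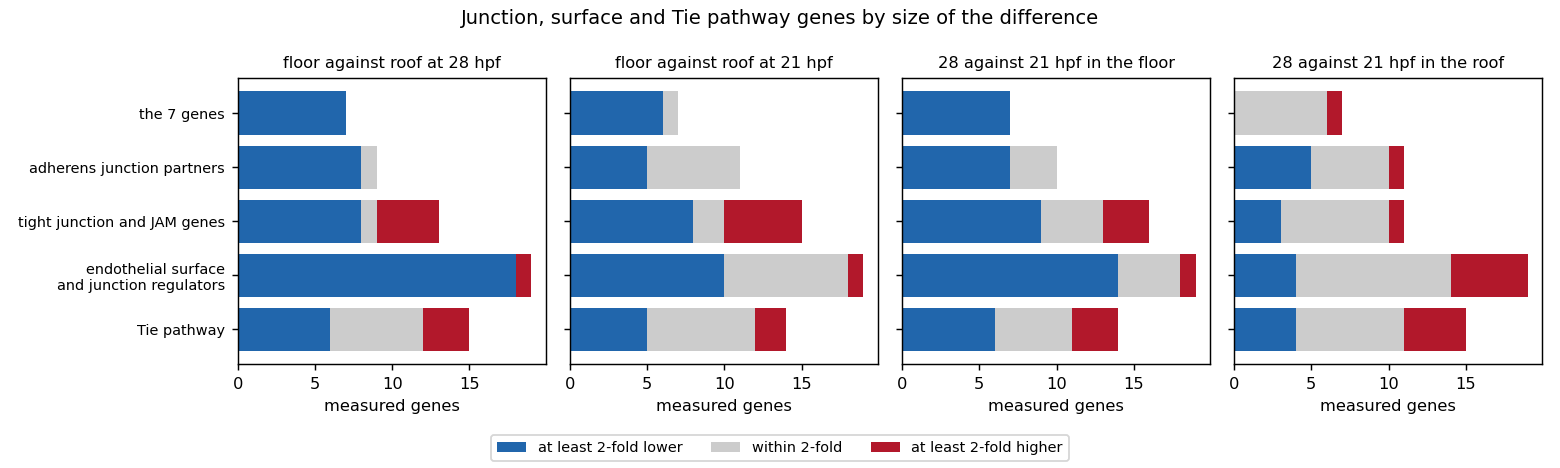
Number of measured genes at least 2-fold lower, within 2-fold and at least 2-fold higher in each comparison, for the 7 genes and 4 lists of related genes. At 28 hpf 18 of 19 endothelial surface and junction regulators are lower in the floor, while the tight junction and Tie pathway lists hold genes on both sides. The higher genes of those lists are no more frequent there than among all measured genes.

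Partners of VE-cadherin at the adherens junction were lower in the floor at 28 hpf. Of 9 measured, 8 were at least 2-fold lower and 0 higher than in the roof (35.6% of all measured genes lower), with a median log2 ratio of -2.85, against 0.06 over all genes. The gene of p120-catenin, ctnnd1, which holds VE-cadherin at the surface, had 14.2 CPM in the floor and 388 CPM in the roof, 27.4-fold lower in the floor and 61.0-fold lower without floor cell 3. The phosphatase gene ptprb, known in mouse as VE-PTP and acting on both VE-cadherin and TIE2, had 2.50 CPM in the floor and 249.5 CPM in the roof, or 99.8-fold lower in the floor and 183-fold without floor cell 12. The gene ctnnb1 for beta-catenin, which also serves in Wnt signalling, had 326 CPM in the floor and 385 CPM in the roof and lay within 2-fold.

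At 21 hpf 5 of 11 measured partners were at least 2-fold lower in the floor than in the roof and 0 higher, where 25.5% of all measured genes were lower. ctnnd1 had 396 CPM in the floor and 2343 CPM in the roof, 5.92-fold lower, and ctnnb2 was 2.30-fold lower. Within the floor 7 of 10 were lower at 28 hpf than at 21 hpf and 0 higher (42.0% of all genes lower), among them ctnnd1 at 27.9-fold and ctnna1, for alpha-catenin, at 21.8-fold (35.9-fold without floor cell 1 or cell 2 of 28 hpf). Without floor cell 3 of 28 hpf ctnnd1 was 62.2-fold lower. Within the roof 5 of 11 were lower at 28 hpf, against 35.0% of 11653 genes, and 1 was higher. Here ctnnd1 was 6.04-fold lower at 28 hpf while cdh5 was 1.47-fold higher, and ptprb was 31.4-fold higher, or 72.6-fold without roof cell 13 of 21 hpf.

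Other tight junction and JAM genes were lower in the floor more often than all genes at both stages, and higher about as often. At 28 hpf 8 of 13 measured were at least 2-fold lower in the floor than in the roof and 4 were higher, where 35.6% of 11194 genes were lower and 34.9% higher. marveld1 was 97.6-fold lower, and tjp2b, for a ZO-type scaffold protein, at least 60.0-fold lower. The claudin gene cldng ran against the claudin-5 genes, with 126 CPM in the floor and 0 CPM in the roof at 28 hpf, at least 84.2-fold higher in the floor. It was also 8.55-fold higher in the floor at 21 hpf, at 93.1 CPM in the floor and 10.9 CPM in the roof. At that stage 8 of 15 measured genes of the list were lower in the floor and 5 higher, against 25.5% of 12955 genes lower and 32.7% higher. tjp1a, for ZO-1, was 4.52-fold lower there, or 7.01-fold without floor cell 18, and marveld1 was 3.51-fold lower, or 6.19-fold without floor cell 16.

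Between the stages, 9 of 16 measured tight junction and JAM genes were lower in the floor at 28 hpf than at 21 hpf and 3 were higher, against 42.0% of 12258 genes lower and 16.7% higher. jam3b was 6.27-fold lower, with 4.12-fold and 3.94-fold without floor cells 6 and 16 of 21 hpf and 13.1-fold without floor cell 4 of 28 hpf. tjp1a was 4.08-fold lower, with 2.63-fold without floor cell 18 of 21 hpf and 13.6-fold without floor cell 4 of 28 hpf. In the roof 3 of 11 were lower at 28 hpf and 1 was higher, against 35.0% and 22.5% of all genes. The 1 was jam2a, a junctional adhesion molecule gene of the immunoglobulin family, as esama is, at 665 CPM at 28 hpf and 278 CPM at 21 hpf, 2.39-fold higher.

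Endothelial surface and junction regulators went with the 7 genes at 28 hpf. The list shares egfl7, pecam1, rasip1, s1pr1, ecscr and robo4 with the endothelial reference used above. Of 19 measured, 18 were at least 2-fold lower in the floor than in the roof, against 35.6% of all measured genes. egfl7, a secreted endothelial protein gene, was at least 514-fold lower and plvapb, of endothelial diaphragms, at least 475-fold lower. The 1 higher gene was vwf, for von Willebrand factor, with 51.3 CPM in the floor and 0 CPM in the roof, at least 34.2-fold higher, or at least 20.9-fold without floor cell 11. The matrix gene mmrn2a, whose human counterpart binds CLEC14A, had 0 CPM in the floor and 171 CPM in the roof, as clec14a also had 0 CPM in the floor. At 21 hpf 10 of 19 were lower in the floor (25.5% of all genes) and 1 was higher, with pecam1 9.14-fold lower, or 40.7-fold without floor cell 16, and egfl7 9.03-fold lower, or 14.5-fold without floor cell 3.

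Within the floor 14 of the 19 regulators were lower at 28 hpf than at 21 hpf (42.0% of all genes) and 1, vwf, was higher, at 4.73-fold or 2.90-fold without floor cell 11 of 28 hpf. plvapb was at least 144-fold lower, or at least 37.7-fold without floor cell 6 of 21 hpf, and mmrn2a at least 108-fold lower. Within the roof 4 were lower and 5 higher at 28 hpf, where 35.0% of all genes were lower and 22.5% higher. robo4, an endothelial guidance receptor gene, was 9.02-fold higher and pecam1 4.75-fold higher, while mmrn2a was 2.42-fold lower and ecscr 2.13-fold lower, or 3.52-fold without roof cell 5 of 28 hpf.

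The Tie pathway beyond the receptors had genes on both sides. Its ptprb was also counted among the adherens junction partners. At 28 hpf 6 of 15 measured genes were lower in the floor than in the roof, 3 were higher and 6 within 2-fold, a share of lower genes near the 35.6% of all genes, of which 34.9% were higher. foxo1a, a transcription factor gene downstream of TIE2 and AKT in mouse, had 1.67 CPM in the floor and 113 CPM in the roof, 67.8-fold lower in the floor or 249-fold without floor cell 8, while pik3r1, for a regulatory subunit of PI3-kinase, was 2.38-fold higher in the floor. At 21 hpf 5 of 14 were lower in the floor and 2 higher (25.5% and 32.7% of all genes), with the phosphatase genes ptpn11a 4.77-fold and inpp5d 3.78-fold lower, inpp5d 7.86-fold without floor cell 5. Within the floor 6 of 14 were lower and 3 higher at 28 hpf (42.0% and 16.7% of all genes), among the higher inpp5d at 3.47-fold, or 7.21-fold without floor cell 5 of 21 hpf, and within the roof 4 of 15 were lower and 4 higher (35.0% and 22.5%). In the roof akt2 was 6.89-fold higher at 28 hpf, grb2b was 4.52-fold lower (9.15-fold without roof cell 10 of 28 hpf) and ptpn11a 4.35-fold lower. Of the ligand genes, angpt1 had 25.8 CPM in the floor and 0 CPM in the roof at 28 hpf, and 11.7 CPM in the floor and 0.294 CPM in the roof at 21 hpf, whereas angpt2a, angpt2b and angpt4 had 0 reads in all 4 sums.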

How the data were processed

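Single cells of the trunk dorsal aorta were made into Smart-seq2 libraries, primed on polyA RNA by oligo-dT, and read as 150 bp paired ends, per the labels' protocols. The authors deposited raw gene counts per cell. Per the submitters' processing notes, Trim Galore, STAR and the GRCz11 (danRer11) build were used; for the counting tool, annotation, strand and versions the sources used here name none. Smart-seq2 reads carry no molecular identifiers, so reads need not be separate molecules. Intervals of ratios cover the counting of reads only. Intervals of detection are over cells, as if the cells were independent, although no embryo was named.

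Each cell was drawn down to 200000 reads without replacement (seed 1) and summed by group. A gene was measured with at least 10 thinned reads in both groups together, and passed with a ratio of at least 2-fold. Ratio intervals were exact binomial, and shares of cells Clopper-Pearson, at 95%. A group at 0 was set to 3 reads and gave a bound, and no ratio was given where both groups were at or under 3 reads. Genes without reads in any cell numbered 14082. All 7 genes were named throughout, with the 10 genes most alike their mean and the 3 most alike each (5 or more thinned reads in at least 10 cells, or 8 roof cells). From each related list up to 2 genes each way of 50 or more CPM in the higher group were named; ctnnb1, mmrn2a at 28 hpf and the angiopoietin genes were named after their values were seen. The 7 genes and the lists were chosen with earlier results of these data known. Alternatives were raw sums, mean per-cell CPM, edgeR 4.0.16 TMM factors, DESeq2 1.42.0 size factors, totals without mitochondrial genes, seed 2, 100000 reads, log2(CPM + 1), other minimums and fold limits, and leaving out cells. Scripts were tested on simulated data, in Python 3.11.15 (numpy 2.4.6, pandas 2.3.3, scipy 1.17.1) and R 4.3.3.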

Additional observations from a re-analysis of the deposited data

Results flagged for a closer look

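In the roof at 28 hpf, the 1 group of a size that allowed the check, the highest and the lowest cell were set against the others for each of the 7 genes by Dixon's 95% limit. cldn5b in roof cell 6 passed it at 3286 CPM, only just above the limit. Chance alone gives such a cell in about 1 of 20 groups, and 14 ends of 7 genes were looked at. Without this cell cldn5b was still at least 671-fold lower in the floor than in the roof at 28 hpf.

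The stage difference of tek had opposite signs in the floor and the roof, with a log2 ratio of 28 to 21 hpf of -4.03 in the floor and 1.73 in the roof. The difference between these ratios was not tested, since each group is 1 sample.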

How the results depend on the processing

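Of the 7 genes, the count at least 2-fold lower in the floor at 28 hpf was 7 under every alternative run. The 6 lower in the floor at 21 hpf became 2 at a 4-fold limit and 3 without cells of over 1% erythroid or muscle counts. The 7 lower in the floor at 28 hpf than at 21 hpf became 4, with 1 higher, without the 4 floor cells of roof-like endothelial share, where cldn5a reversed to a log2 ratio of 1.04, and 6 at 100000 reads or a 4-fold limit, each without cldn5a. The 1 higher in the roof at 28 hpf than at 21 hpf became 3 with mean per-cell CPM, DESeq2 size factors or a 1.5-fold limit, 2 with TMM factors, 100000 reads or without the cells of title part dorsal1 or dorsal2, and 0 at a 4-fold limit. Leaving out 1 cell in turn gave 6 to 6 lower and 0 to 0 higher for the floor at 21 hpf, 7 to 7 and 0 to 0 at 28 hpf, 7 to 7 and 0 to 0 between floor stages, and 0 to 0 lower and 1 to 2 higher between roof stages. Of 1294 alternative values of single genes, 181 moved beyond the counting interval, 1 of a ratio past 2-fold changed sign and 1112 did neither. Some ratios within 2-fold, with values among the 181, also changed sign. For floor against roof at 21 hpf, tek came to a log2 ratio of -0.66 without the 4 floor cells and -0.44 without floor cell 6. Between roof stages tie1 came to 0.36 without the dorsal2 cells and clec14a to 0.17 with DESeq2 size factors. DESeq2 size factors raised the log2 ratio of the median gene by 0.24 between floor stages and 0.22 between roof stages, and raw sums raised it by 0.10 between roof stages, while with raw sums at 28 hpf it fell by 0.12. Bounds scale with the reads summed: for the 5 genes at 0 thinned reads in the floor at 28 hpf, the lowest bound against the roof was 178-fold (esama without the M12 cells). Between floor stages the bounds of these 5 genes were lower, down to 1.14-fold for cldn5b without the 4 floor cells of roof-like endothelial share. Unthinned counts hold a few floor reads of each of these genes but cldn5b, so their values from unthinned counts are ratios on few reads. The highest, 53520-fold for tie1 with mean per-cell CPM, rests on 1 read in floor cell 7 and is not a bound. No paired analysis was possible because the results come from no test and the cell numbers pair no cells.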

Other observations

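In roof cells of 21 hpf tek went with the number in the cell title, whose meaning the labels do not give. Cells numbered 9 to 18 had 50.2 to 339 CPM of tek and those numbered 1 to 8 had 0 to 62.0 CPM. The same cells did not divide in this way for cdh5, at 3.88 to 2173 CPM in cells numbered 9 to 18 and 116 to 1796 CPM in those numbered 1 to 8, or for clec14a, at 180 to 2234 CPM and 999 to 2837 CPM in the same order. The esama level leaned the other way from tek, though with overlap. It was 0 to 257 CPM in cells numbered 9 to 18 and 45.4 to 556 CPM in cells 1 to 8. For cldn5a, cldn5b and tie1 the range in cells 9 to 18 enclosed that in cells 1 to 8. The splits of tek and esama were noticed in the values and were not tested.

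In the roof at 28 hpf the title parts also differed in tie1 and esama. For tie1, the 5 dorsal3 cells had 513 to 1276 CPM, the 4 dorsal2 cells 265 to 427 CPM and the 1 dorsal1 cell 569 CPM. For esama, the dorsal3 cells had 460 to 745 CPM, the dorsal2 cells 180 to 448 CPM and the dorsal1 cell 189 CPM. Neither gene overlapped between dorsal3 and dorsal2, whereas cdh5, cldn5a, cldn5b, clec14a and tek did. The genes tie1 and esama were picked after the values were seen. How many of all measured genes lack overlap between these parts was not counted, so the separation cannot be taken as particular to tie1 and esama. It was not tested.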
